A study of Mus musculus with 6 samples.

Results

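The genes described here are 34 transcription factors and markers that neurogenic progenitors and the layers of the cerebral cortex express, followed through Qk knockout and control cortex. They were chosen by symbol from 35857 genes with a deposited value, and each symbol was found in 1 row. By textbook role, 8 belong to progenitors and newborn neurons, 8 to projection neurons across several layers, 7 to upper layers and 11 to deep layers. The data are 6 RNA-seq libraries of cerebral cortex from C57BL/6 mice at postnatal day 7, 3 with the genotype Qk-/- and 3 controls of wild type genotype, each made from its own brain. The product of Qk, quaking, binds RNA in neural stem cells and glia and acts on splicing, stability and translation of its targets. The title of the series places quaking at the turn of neural stem cells from neurogenesis to gliogenesis, and the genes of neurogenesis are one side of that turn. Which exons were deleted, and in which cells, is not given in the sources used here.

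Projection neurons of the cortex arise from radial glia of the embryonic ventricular zone, in part through intermediate progenitors. Proneural factors of the basic helix-loop-helix family start the neuronal programme, and deep layers are filled before upper layers. Layer identity then rests on factors that repress each other, so that corticothalamic, subcerebral and callosal neurons keep separate programmes. At the end of the first postnatal week neurogenesis of these cells is over. The layer factors persist in neurons, while some of the progenitor factors linger in few cells.

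Expression was given as TPM, which scales reads by gene length and to a fixed total per library. TPM keeps no depth, so the number of reads behind a value is unknown. A gene entered the test when its mean over the 6 libraries was at least 1 TPM, which 14994 genes did. Changes are knockout minus control on the log2(TPM + 1) scale from limma, and adjusted p-values are Benjamini-Hochberg values over all tested genes. Qk was at 14.6, 15.2 and 15.4 TPM in knockout libraries, against 36.5, 43.2 and 41.3 TPM in control libraries, so the labels fit the targeted gene (log2 change −1.36, SE 0.0945, limma adjusted p = 0.000855). For the cortex label, Slc17a7, whose product loads glutamate into synaptic vesicles, was at 506 to 530 TPM in knockout and 484 to 508 TPM in control libraries, and of the thalamic markers Gbx2 was at most 0.76 TPM in knockout and 0.46 TPM in control libraries, while Prkcd was at 23.4 to 29.5 TPM in knockout and 21.4 to 26.8 TPM in control libraries. In whole tissue, a change in the number of cells of a type and a change of RNA per cell cannot be told apart.

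Quaking recognizes a short RNA motif, written here as DNA, ACTAAC or ACTAAT, that is bound best when a shorter TAAC or TAAT lies nearby. These letters were searched on the sense strand of 3′ UTRs, since they bear on which members quaking could bind. For the pair, TAAC or TAAT had to lie 1 to 20 bases away on either side. Of the 33 tested members, 18 held the 6-base motif, or 54.5%, against 34.9% of 13355 tested genes with an annotated 3′ UTR. The members' 3′ UTRs were longer, with a median of 1662 bases against 1212 bases, and among 6082 tested genes with a 3′ UTR of 1120 to 4229 bases the share was 47.9%. The pair was held by 5 members, or 15.2%, against 14.3% of all tested genes and 19.1% of those of similar 3′ UTR length. Both member shares are over all 33, whatever their 3′ UTR length, so they are not limited to that range as the other genes are. They include Lmo4, for example, with 767 bases. These shares were not tested against each other. The 5 members with the pair were Neurod1, Bhlhe22, Lmo4, Tbr1 and Ldb2. One site of each is printed 5′ to 3′ on the sense strand from GENCODE transcripts of GRCm38, with the 6-base motif and its partner in capitals.
Neurod1 (chr2:79453375-79453404, minus strand): atacaaaaTAATttaACTAATttaaaccag
Bhlhe22 (chr3:18056229-18056258, plus strand): caaaatacTAATcctACTAACacctgacaa
Lmo4 (chr3:144188991-144189020, minus strand): ggaaatgACTAATgaagcTAATtaaacgaa
Tbr1 (chr2:61813550-61813579, plus strand): tgtaatgagTAATctACTAATgatatagat
Ldb2 (chr5:44472250-44472279, minus strand): gaACTAATttttccatttgcatatTAATat
In Bhlhe22 the shown partner TAAT is the end of a further ACTAAT, so its 2 motifs pair with each other. The log2 changes of the 5 genes lay between −0.06 for Bhlhe22 and 0.06 for Lmo4, with a median of 0.01, and none passed the test. The other tested members had a median of −0.004. A match of letters is a description and does not show binding.

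The levels of the members spanned a wide range within the cortex. TPM is scaled by length, so levels can be set between genes. Lmo4, which encodes a LIM-only adaptor of transcription complexes, was the most abundant member at 319 ± 20.4 TPM in knockout and 305 ± 8.94 TPM in control cortex (SD, n = 3 each, as for all means here). Mef2c, Crym, Bcl11a, Neurod6, Cux1 and Neurod2 were the other members whose mean over the libraries reached 100 TPM. At the lower end, 8 of the 34 had a mean under 10 TPM, among them Eomes, Emx2, Rorb, Foxp2 and Otx1. Neurog2, a proneural factor of progenitors, was the one member below the test's minimum, at 0.15, 0.95 and 0.50 TPM in knockout libraries, against 0.29, 1.52 and 1.1 TPM in control libraries. Its groups overlapped. When genes of low TPM were also tested, its log2 change was −0.34 with a 95% interval from −1.03 to 0.35 (limma, adjusted p = 0.834).

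**Figure D1:**
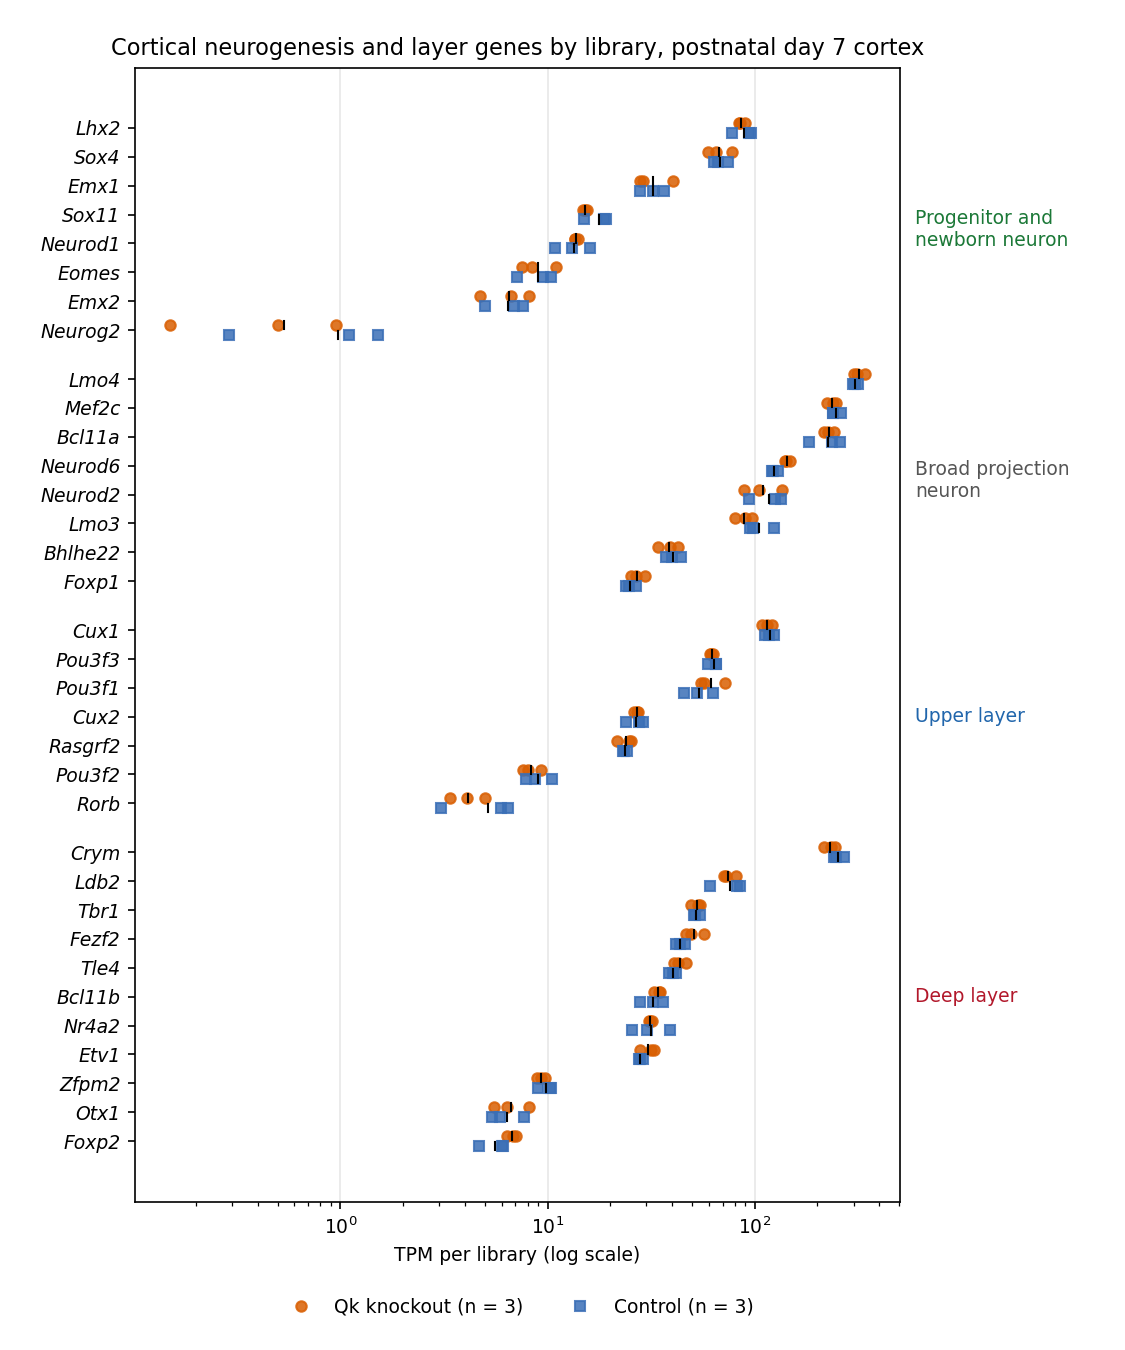
TPM of each of the 34 members in each library (log axis), grouped by role, with knockout libraries as circles above and control libraries as squares below, and the mean of each group as a black tick. Between the most abundant member, Lmo4, and the least abundant, Neurog2, knockout and control values run together, and the groups separate only for Neurod6, Fezf2 and Foxp2.

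None of the 33 tested members passed an adjusted p of 0.05 in either direction, against 58 of 14994 genes, or 0.387%, over the whole table. The smallest adjusted p of a member was 0.399, for Neurod6 (limma). At an unadjusted p under 0.05 there were 2 members, Neurod6 and Fezf2, or 6.06%, both higher in the knockout, against 8.72% of all genes in either direction and 3.42% in that direction. Values did not overlap between the groups for 3 members, or 9.09%, against 14.2% of all genes. All 3, Neurod6, Fezf2 and Foxp2, were higher in the knockout, against 5.2% of all genes that did not overlap in that direction. These shares were not tested against each other. Of the 33 log2 changes 16 were above 0, and their median was −0.003, beside a median of −0.03 over all tested genes. Mean TPM in knockout cortex was between 0.803 times the control mean, for Rorb, and 1.20 times, for Foxp2. For 26 of the 33 members the means were within 10% of each other, which held for 56.3% of all tested genes.

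The intervals of the changes were narrow for most members. The 95% interval of the log2 change lay inside a 1.5-fold change in both directions for 32 of 33 members, against 72.9% of all tested genes, a bound chosen after the values were seen. Rorb was the exception, with an interval from −0.78 to 0.34, and all 33 lay inside a 2-fold change. Interval width depends on level, and all 26 members of at least 10 TPM lay inside 1.5-fold, against 92.1% of all genes of that level. The pseudocount of 1 compresses changes of low genes, so the intervals of the 7 tested members under 10 TPM are narrower than on the TPM scale.

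**Figure D2:**
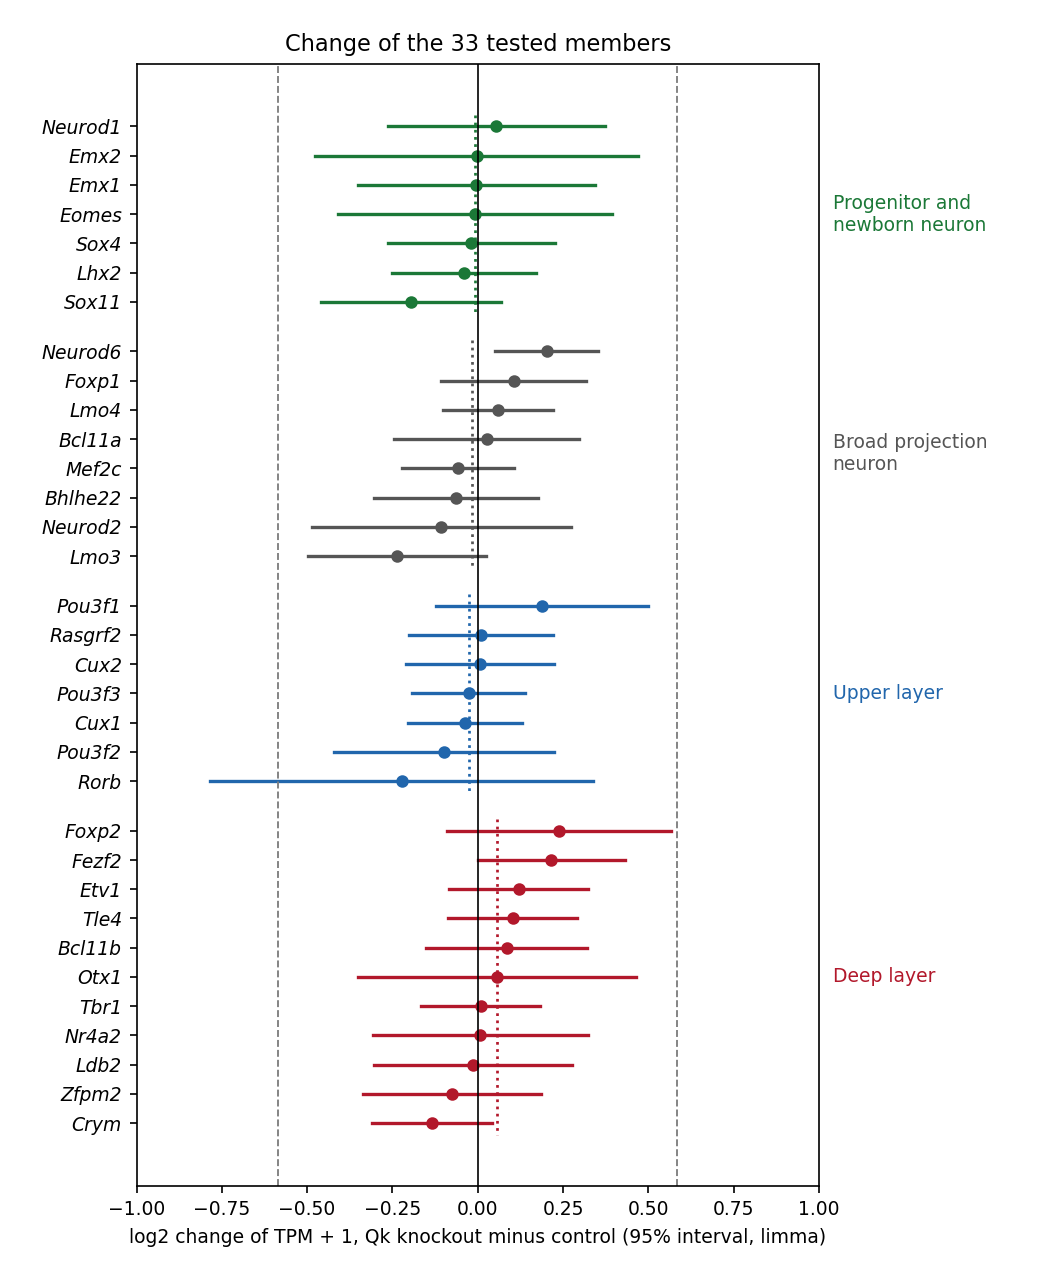
log2 change of TPM + 1, knockout minus control, of the 33 tested members, with 95% intervals from limma, dotted lines for the median of each role group and dashed lines at a 1.5-fold change. The interval of Rorb alone crosses a dashed line, and the intervals of Neurod6 and Fezf2 lie above 0 without passing the adjusted test.

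**Figure D3:**
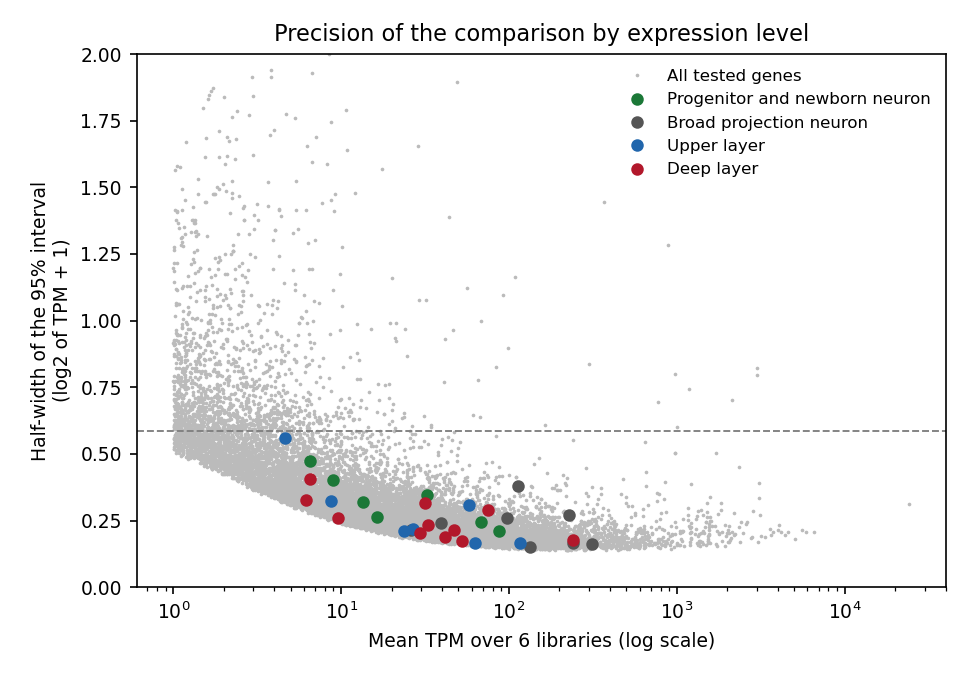
Half-width of the 95% interval of the log2 change against mean TPM over the 6 libraries (log axis) for all tested genes in grey and the members in the colours of their role groups, with a dashed line at a 1.5-fold change. Rorb, the least abundant tested member, has the widest interval of the members, and 57 other genes lie above the top of the plot.

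Progenitor and newborn neuron genes were at like levels in both groups. Eomes, the T-box factor of intermediate progenitors, was at 10.97, 8.44 and 7.53 TPM in knockout libraries, against 10.4, 7.12 and 9.55 TPM in control libraries. The values of the groups were interleaved, and the means differed by less than either SD (8.98 ± 1.78 TPM in knockout and 9.03 ± 1.71 TPM in control; log2 change −0.01, 95% interval −0.41 to 0.39, limma adjusted p = 0.992). Neurod1, a basic helix-loop-helix factor that follows the proneural factors, averaged 13.7 ± 0.247 TPM in knockout and 13.4 ± 2.62 TPM in control cortex, with knockout libraries close together and inside the control range. Sox4 and Sox11 are related factors that promote neuronal differentiation. Sox4 averaged 67.5 ± 9.20 TPM in knockout and 68.1 ± 5.41 TPM in control cortex. Sox11 was at 15.1, 14.9 and 15.5 TPM in knockout libraries, against 18.7, 15.0 and 19.2 TPM in control libraries. Control library 2 lay among the knockout values, and the log2 change of −0.20, the lowest of the group, did not pass (SE 0.116, limma adjusted p = 0.702).

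Emx1, Emx2 and Lhx2 pattern the dorsal telencephalon, and Emx2 and Lhx2 are also found in astroglia. Emx1 averaged 32.4 ± 6.91 TPM in knockout and 32.3 ± 4.36 TPM in control cortex, Emx2 6.5 ± 1.71 and 6.47 ± 1.34 TPM, and Lhx2 86.2 ± 3.45 and 89.0 ± 9.99 TPM in the same order of groups. The group of 7 tested genes had 6 negative changes and 1 positive, with a median of −0.01 that turned to 0.02 after median-of-ratios scaling and 0.01 after quantile normalization, and ran from −0.10 to 0.01 with 1 library left out. The summed level of all 8 was 224 to 244 TPM in knockout and 225 to 243 TPM in control libraries.

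The same comparison was made in 14 further genes of progenitors and newborn neurons. Of these, 11 were tested, and none passed the adjusted test in either direction (limma; median log2 change 0.06, 8 positive). An unadjusted p under 0.05 was found for 1, against 8.72% of all genes. Tubb3, a tubulin of young neurons and the most abundant, was at 2295, 2416 and 2487 TPM in knockout libraries, against 2034, 2626 and 2570 TPM in control libraries, with overlap. Rnd2, a small GTPase of migrating neurons that is a target of Neurog2, was at 200, 195 and 212 TPM in knockout libraries, against 316, 236 and 242 TPM in control libraries. It was the one gene of the 11 whose groups did not overlap, against 8.98% of all genes that were lower in this way (log2 change −0.37, SE 0.111, limma adjusted p = 0.329).

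Upper layer genes did not pass either, and the values of Rorb and Pou3f1 varied more between libraries than those of the others. Cux2, a homeodomain factor of upper layer neurons, was at 26.2, 27.1 and 27.5 TPM in knockout libraries, against 28.9, 24.0 and 27.7 TPM in control libraries. The knockout libraries lay inside the control range, with a log2 change of 0.01 and a 95% interval from −0.21 to 0.22 (limma adjusted p = 0.989). Cux1, its paralog, averaged 115 ± 6.08 TPM in knockout and 118 ± 5.59 TPM in control cortex, so Cux1 exceeded Cux2 by 4.28 ± 0.124 times in knockout and 4.43 ± 0.510 times in control libraries. Rasgrf2, a guanine nucleotide exchange factor used as a marker of layers 2 and 3, averaged 23.8 ± 1.88 TPM in knockout and 23.6 ± 0.541 TPM in control cortex.

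The POU factors Pou3f1, Pou3f2 and Pou3f3 act in upper layer neurons and their migration. Pou3f3 averaged 62.0 ± 1.07 TPM in knockout and 63.3 ± 3.18 TPM in control cortex, and Pou3f2 8.32 ± 0.910 and 9.01 ± 1.33 TPM in the same order. Pou3f1, which is also a factor of some deep layer neurons and of glia of the peripheral nerve, was at 55.1, 71.9 and 56.9 TPM in knockout libraries, against 62.7, 52.9 and 45.7 TPM in control libraries. Knockout library 2 was the highest and control library 3 the lowest, with overlap between (log2 change 0.19, SE 0.137, limma adjusted p = 0.756; 0.07 without knockout library 2 and 0.08 without control library 3). Rorb, a nuclear receptor of layer 4, was at 4.07, 3.38 and 4.99 TPM in knockout libraries, against 5.95, 3.07 and 6.47 TPM in control libraries. Control library 2 was the lowest of all 6 and the other two controls were the highest, so the control SD was 35.5% of the mean, the largest of the tested members (log2 change −0.22, SE 0.247, limma adjusted p = 0.863). It was −0.50 without control library 2 and −0.06 without control library 3.

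The 7 upper layer members had a median log2 change of −0.03, with 3 positive, which turned to 0.002 after median-of-ratios scaling and 0.01 after quantile normalization. Their summed level was 289 to 308 TPM in knockout and 295 to 302 TPM in control libraries. Of 9 further upper layer genes, none passed the adjusted test (limma; median −0.05, 4 positive). An unadjusted p under 0.05 was found for 1, against 8.72% of all genes. Plxnd1, a semaphorin receptor, was at 79.3, 80.7 and 74.1 TPM in knockout libraries, against 91.8, 82.8 and 88.7 TPM in control libraries, and Nectin3, an adhesion gene, averaged 16.6 ± 2.34 and 21.4 ± 1.40 TPM in that order. These were the 2 of the 9 whose groups did not overlap, both lower in the knockout, against 8.98% of all genes that were lower in this way (limma adjusted p = 0.580 and 0.412), with Nectin3 named after its values were seen. Calb1, a calcium-binding protein gene, averaged 42.2 ± 4.46 TPM in knockout and 37.6 ± 3.02 TPM in control cortex.

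No deep layer gene passed the adjusted test. Values did not overlap for 2 of the 11, both higher in the knockout, against 5.2% of all genes that were higher in this way. Fezf2, the zinc finger factor that specifies subcerebral projection neurons, was at 46.6, 57.1 and 49.3 TPM in knockout libraries, against 41.6, 45.8 and 43.6 TPM in control libraries. All knockout values were above all control values, though knockout library 1 exceeded control library 2 by little. The log2 change was 0.22 (SE 0.0945, 95% interval 0.0014 to 0.43) and did not pass (limma adjusted p = 0.572), and it was 0.13 without knockout library 2. Foxp2, a forkhead factor of layer 6 and of striatal neurons, was at 6.38, 7.01 and 6.82 TPM in knockout libraries, against 4.66, 6.00 and 6.12 TPM in control libraries. Control library 1 was set apart below the others, and the log2 change of 0.24, the highest of the members, did not pass (SE 0.145, limma adjusted p = 0.710). It was 0.13 without control library 1.

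Bcl11b, a zinc finger factor downstream of Fezf2 in subcerebral neurons and also abundant in striatum, was at 32.8, 34.7 and 34.4 TPM in knockout libraries, against 28.0, 32.3 and 36.1 TPM in control libraries. Tbr1, the T-box factor of layer 6, was at 49.5, 53.3 and 54.6 TPM in knockout libraries, against 54.2, 50.9 and 51.3 TPM in control libraries. For both genes the knockout mean lay inside the control range, and for Tbr1 the 95% interval of the log2 change was −0.17 to 0.18 (limma adjusted p = 0.985). Tle4, a corepressor of corticothalamic neurons, averaged 43.4 ± 2.97 TPM in knockout and 40.3 ± 1.58 TPM in control cortex, and Etv1, an ETS factor of layer 5, 30.7 ± 2.46 and 28.1 ± 0.700 TPM in that order. Ldb2, a LIM domain binding cofactor of layer 5, averaged 74.7 ± 5.43 TPM in knockout and 76.2 ± 13.4 TPM in control cortex. Otx1, a homeodomain factor of layers 5 and 6, averaged 6.65 ± 1.34 and 6.35 ± 1.22 TPM, and Zfpm2, a zinc finger cofactor of corticothalamic neurons, 9.31 ± 0.415 and 9.88 ± 0.754 TPM in the same order.

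Crym, which encodes a thyroid hormone binding protein, was at 244, 215 and 232 TPM in knockout libraries, against 270, 247 and 241 TPM in control libraries, with the lowest control inside the knockout range (log2 change −0.13, SE 0.0773, limma adjusted p = 0.691). Nr4a2, an orphan nuclear receptor of layer 6b and the claustrum that neuronal activity also induces, was at 30.8, 31.2 and 32.0 TPM in knockout libraries, against 25.6, 30.3 and 38.98 TPM in control libraries. The knockout libraries lay inside the wider control range. The 12 immediate early genes, which share that induction, summed to 228 to 262 TPM in knockout and 187 to 224 TPM in control libraries, and none passed the adjusted test, with 10 changes above 0. At an unadjusted p under 0.05 there were 4, all higher in the knockout, against 3.42% of all genes in that direction (limma). Nr4a1, a nuclear receptor related to Nr4a2, averaged 34.8 ± 3.78 TPM in knockout and 27.4 ± 3.89 TPM in control cortex, and Egr3, a zinc finger factor, 30.1 ± 2.06 and 29.1 ± 1.76 TPM in that order. Their part in the values of Nr4a2 was not tested.

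The 11 deep layer members had 8 positive changes and a median of 0.06, beside −0.03 over all genes. The median remained above 0 after median-of-ratios scaling (0.08) and quantile normalization (0.07), and was −0.01 without control library 1. The summed level was 555 to 584 TPM in knockout and 568 to 586 TPM in control libraries. Of 11 further deep layer genes, none passed the adjusted test (limma; median −0.001, 5 positive). An unadjusted p under 0.05 was found for 1, against 8.72% of all genes. Pcp4, a calmodulin-binding protein gene of deep layers, averaged 651 ± 101 TPM in knockout and 609 ± 51.3 TPM in control cortex, and Rprm, a gene of layer 6, 150 ± 28.1 and 142 ± 15.4 TPM in that order. Nxph4, a gene of layer 6b named after its values were seen, was the one of the 11 without overlap, against 8.98% of all genes that were lower in this way. It was at 16.0 ± 0.437 TPM in knockout and 18.2 ± 1.59 TPM in control cortex (limma adjusted p = 0.697). The 1 gene with an unadjusted p under 0.05 was not Nxph4 but Ctgf, also named after its values were seen. Ctgf was higher in the knockout, at 55.5 ± 5.29 TPM against 47.1 ± 4.15 TPM in control cortex, with overlap (limma adjusted p = 0.557).

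Genes shared by projection neurons of several layers had the member of smallest p. Neurod6, a basic helix-loop-helix factor of maturing projection neurons, was at 141, 140 and 148 TPM in knockout libraries, against 121, 129 and 123 TPM in control libraries. All knockout values were above all control values, and the SD was 3.10% of the mean in knockout and 3.46% in control cortex. The log2 change of 0.20 (SE 0.0667, 95% interval 0.05 to 0.35) stood at rank 544 by p among all tested genes and did not pass (limma adjusted p = 0.399). Neurod2, its relative, was at 89.2, 135 and 104 TPM in knockout libraries, against 94.1, 125 and 134 TPM in control libraries, a wide range in both groups. Their ratio, Neurod6 over Neurod2, was 1.04 to 1.58 in knockout and 0.917 to 1.28 in control libraries, with overlap.

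Lmo3, a LIM-only gene related to Lmo4, was at 89.6, 80.3 and 97.03 TPM in knockout libraries, against 124, 94.6 and 98.1 TPM in control libraries. Control library 1 was the highest, and control library 2 lay among the knockout values (log2 change −0.24, SE 0.115, limma adjusted p = 0.616). It was −0.12 without control library 1. The ratio of Lmo4 to Lmo3 was 3.47 to 3.77 in knockout and 2.41 to 3.21 in control libraries, without overlap, a pair compared after the values were seen. All other ratios computed between members overlapped between the groups, and no ratio was tested. Lmo4 itself did not pass (limma adjusted p = 0.875). Bcl11a, a zinc finger factor of layer identity, averaged 228 ± 12.1 TPM in knockout and 226 ± 38.5 TPM in control cortex. Mef2c, an activity-regulated factor of neuronal maturation, averaged 236 ± 12.5 and 246 ± 12.5 TPM in the same order. Foxp1, a forkhead factor of middle and deep layers and of striatum, averaged 27.1 ± 2.08 and 25.1 ± 1.39 TPM, and Bhlhe22, a factor of area identity, 38.6 ± 4.34 and 40.4 ± 3.40 TPM in that order. The 8 genes had 4 positive changes and a median of −0.02, which turned to 0.01 after median-of-ratios scaling and 0.003 after quantile normalization, and ran from −0.07 to 0.05 with 1 library left out. Among 8 further genes of excitatory neurons none passed the adjusted test and 0 had an unadjusted p under 0.05 (limma; median −0.06, 2 positive). Nrgn, a calmodulin-binding protein gene and the most abundant of them, averaged 1477 ± 36.3 TPM in knockout and 1581 ± 105 TPM in control cortex. Camk2a, a kinase of excitatory synapses named after its values were seen, was the one of the 8 without overlap, against 8.98% of all genes that were lower in this way. It was at 251 ± 4.42 TPM in knockout and 279 ± 17.8 TPM in control cortex (limma adjusted p = 0.606).

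**Figure D4:**
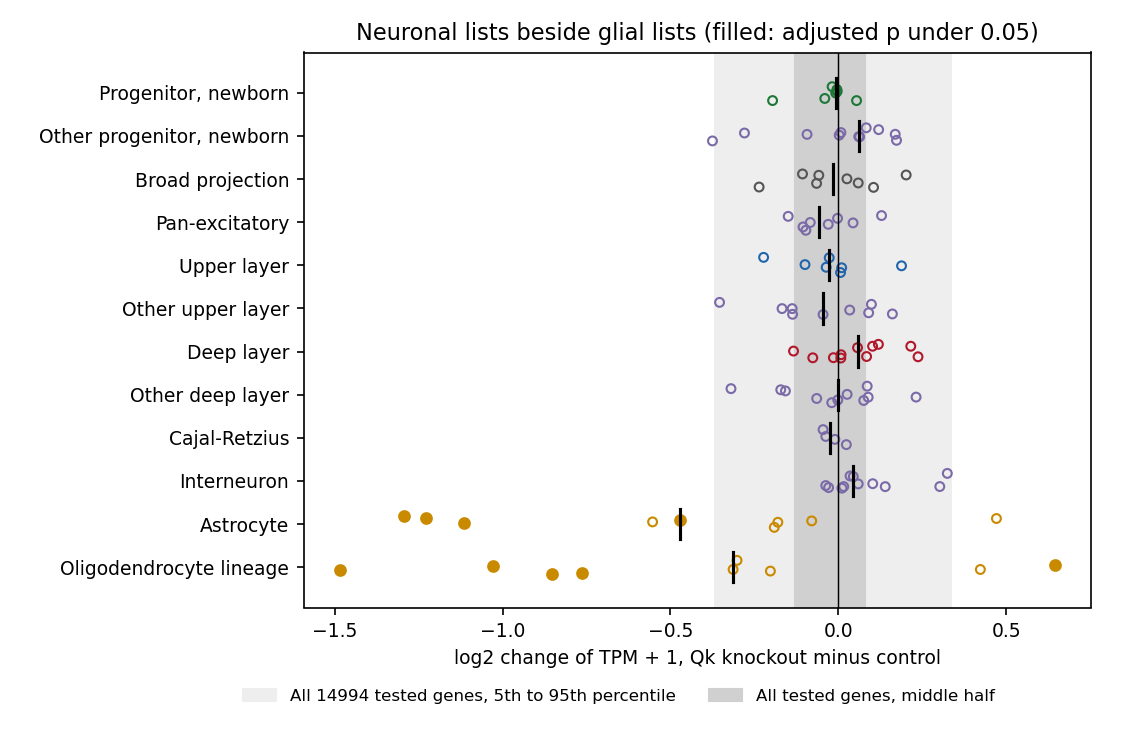
log2 change of TPM + 1, knockout minus control, of each tested gene of the 4 role groups, further neuronal lists and 2 glial lists, with the median as a black bar, genes past an adjusted p of 0.05 filled, and shading for all tested genes. The neuronal lists lie within or near the shaded range with no filled point, and the astrocyte and oligodendrocyte lists hold the filled points.

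Markers of glia passed the test in the same fit, a result known when the members were chosen. Of 9 astrocyte markers, 4 fell (Slc1a3, Mlc1, S100b and Gja1), and of 9 markers of the oligodendrocyte lineage 4 fell (Mbp, Gpr17, Bcas1 and Cnp) and Olig2 rose, against 0.287% of all genes that fell and 0.1% that rose. Other markers of these lists had other values. Aldh1l1, an astrocyte enzyme gene, was at 71.5 to 80.9 TPM in knockout and 50.4 to 63.8 TPM in control libraries, without overlap (limma adjusted p = 0.139), and Aqp4, the water channel of astrocyte endfeet, averaged 46.4 ± 1.86 and 49.1 ± 3.29 TPM in that order. Olig1, a factor related to Olig2, was at 169 to 195 TPM in knockout and 123 to 148 TPM in control libraries, without overlap (limma adjusted p = 0.140). These 3 were named after their values were seen. The summed astrocyte markers were 707 to 768 TPM in knockout and 1019 to 1098 TPM in control libraries, and the summed members 2239 to 2367 TPM in knockout and 2217 to 2367 TPM in control libraries. Interneuron markers, 11 genes with 9 positive changes and none past the adjusted test (limma), summed to 2229 to 2310 TPM in knockout and 1800 to 2017 TPM in control libraries. The sums were led by the peptide genes Sst and Npy, the 2 with an unadjusted p under 0.05, against 3.42% of all genes in that direction. Sst averaged 1314 ± 61.9 TPM in knockout and 1054 ± 141 TPM in control cortex. General markers were at like levels, with Gad1 at 113 ± 2.18 and 108 ± 3.12 TPM in that order, and Slc32a1 at 126 ± 14.2 and 126 ± 22.5 TPM. Gad1 and Slc32a1 were named after their values were seen. Cajal-Retzius markers summed to 155 to 178 TPM in knockout and 153 to 194 TPM in control libraries, with none past the adjusted test and 0 with an unadjusted p under 0.05 (limma).

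Marker lists of neighbouring regions were summed as well, since some members are also expressed there. The 10 striatal markers summed to 435 to 452 TPM in knockout and 370 to 459 TPM in control libraries, lowest in control library 1, which was also the lowest library for Foxp1, Foxp2 and Bcl11b. Their part in those values was not tested. Hippocampal markers summed to 55.2 to 58.6 TPM in knockout and 52.6 to 67.1 TPM in control libraries, thalamic markers to 178 to 189 and 167 to 197 TPM, and choroid plexus markers to 673 to 1027 and 753 to 1541 TPM in the same order of groups. The thalamic list shares Calb2 with the Cajal-Retzius list and Slc17a6 with the excitatory list, and Calb2 alone was at 104 to 122 TPM in knockout and 104 to 135 TPM in control libraries. Microglial markers summed to 239 to 248 TPM in knockout and 217 to 229 TPM in control libraries, and endothelial markers to 370 to 428 and 389 to 517 TPM in that order. None of the genes of these 6 lists passed the adjusted test (limma). At an unadjusted p under 0.05 there were 3 of 7 microglial genes, 1 of 10 striatal and 1 of 6 endothelial, against 8.72% of all genes. Of the 3 microglial genes, 2 were higher and 1 was lower in the knockout. The striatal gene was higher and the endothelial gene lower.

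Control library 1 and knockout library 2 stood at the edge for many members. Of the 34, 15 were lowest in control library 1 and 3 highest, and knockout library 2 was lowest for 9 and highest for 7. Knockout library 3 was lowest for 0 and highest for 6, and control library 3 lowest for 1 and highest for 10. The same was not counted over all genes. The SD of a tested member was at the median 6.86% of the mean in knockout and 11.2% in control cortex. Over all tested genes these medians were 10.5% and 10.0%. Counted by gene, the SD was larger in control cortex for 15 of the 33 tested members, beside 48.2% of all tested genes. That count is near the share of all tested genes and ignores how far the SDs differ, so it does not set the members apart. Exons of 7 tested members overlap a gene on the opposite strand, and the sources used here do not say that reads were counted by strand. For Emx2 the partner Emx2os was at 0.87 to 1.17 TPM in knockout and 0.96 to 1.14 TPM in control libraries, and for Pou3f1 the partner Gm2164 was at 5.96 to 7.49 TPM in knockout and 7.24 to 7.53 TPM in control libraries. Reads of such a pair may not be separated.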

How the data were processed

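PolyA RNA was sequenced on the Ion Proton System, per the labels' protocols. Each deposited file lists TPM by gene for 1 library, as the authors made it. The submitters' processing notes name STAR 2.4.1d, RSEM 1.3.0, mm10 and GRCm38.p4. The gene annotation is not given in the sources used here. Groups and replicate numbers came from sample titles, and the design text gives 3 brains a group. The members, role groups and marker lists were chosen with earlier results of these data known. All 34 members were named, with those of each other list past the threshold (at most 4) or, where none passed, the 2 of highest mean TPM, except that lists of other cell types and regions are mainly given as sums. Genes outside this rule are marked where named, apart from Cnp, Gbx2 and Prkcd and the overlapping genes Emx2os and Gm2164.

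The minimum mean of 1 TPM left 14994 genes. Values of log2(TPM + 1) entered limma 3.58.1 (R 4.3.3; lmFit, then eBayes with a mean-variance trend) with no term other than group. All p-values from it are two-sided and Benjamini-Hochberg adjustment ran over all tested genes, with a threshold of 0.05. The fit was tested on simulated data. TPM sums to a fixed total, so no counting interval was computed. For motifs, the longest 3′ UTR of at least 50 bases among basic protein-coding transcripts of GENCODE M21 (GRCm38) was taken, which 89.1% of tested genes had by symbol. No 2 libraries held identical values. The alternatives tried were other pseudocounts, filters and scalings, the replicate number as a block, no trend and each library left out.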

Additional observations from a re-analysis of the deposited data

How the results depend on the processing

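The count of members past the threshold was 0 in the main analysis and under all 14 alternatives, with the lowest adjusted p of a member 0.319, for Neurod6 after median-of-ratios scaling (limma). The number of genes past the threshold over the whole table was 58, and 37 with no filter on low values, which tests more genes, 38 with the replicate number as a block, 28 with eBayes without trend, and 20 to 53 when 1 library was left out, which leaves fewer samples. The cause of these differences was not tested for any setting. The number was lowest without control library 2, at 20, then 28 without control library 3 and 28 without knockout library 2. It was 31 without knockout library 1 and 33 without knockout library 3. The fall of Qk passed under all 14 alternatives. With 1 library left out, the role group medians ran from −0.10 to 0.01 (progenitor and newborn), −0.07 to 0.05 (broad projection), −0.07 to −0.001 (upper layer) and −0.01 to 0.11 (deep layer). Of the 33 members, 14 kept the sign of their change throughout, among them Neurod6, Fezf2 and Foxp2, and 19 changed it at least once without passing the threshold. Some of these changes came under the scalings, where the median of all genes was 0.002 (median-of-ratios) and −0.003 (quantile), against −0.03 as deposited. Replicate numbers were not shown to pair the brains: deviations of libraries with the same number correlated by 0.013 to 0.035, across genes, though each library correlated best with its own number. A minimum mean of 5 TPM left out Rorb. Unknown depth limits what can be said of Neurog2 and other genes near 1 TPM.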
